A study of Homo sapiens with 8 samples.

Results

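The Dickkopf proteins DKK1 to DKK4, the LRP5 and LRP6 co-receptors and the KREMEN1 and KREMEN2 receptors were followed by their mRNA in BT474, an ERBB2-amplified line established from a human breast tumour. These 8 genes were taken by symbol from a table of 26475 genes, and all 8 were present. The group was chosen by the measured difference of DKK2 between NPY1R high and NPY1R low libraries, one of the strongest in the table, so the differences of these 8 genes are given as a description and carry no test. In the labels, 4 libraries have the genotype NPY1R high and 4 have NPY1R low, where NPY1R encodes the neuropeptide Y receptor Y1. Both groups are the same cell line. The labels name no drug or other treatment and do not say how high and low cells were obtained. They also do not say whether replicates were separate cultures, so every p-value given below measures only the spread between these libraries.

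Secreted DKK proteins bind the LRP5 and LRP6 co-receptors, which Wnt ligands need, together with a Frizzled receptor, to stabilise beta-catenin. DKK1 and DKK4 are antagonists of this pathway, and DKK1 is itself a beta-catenin target in many cells. DKK2 can act as an antagonist or as a weak agonist through LRP6, and KREMEN2 is known to turn it towards antagonism. KREMEN proteins are membrane receptors that join DKK and LRP6 in a complex that is taken up from the cell surface. DKK3 is a divergent relative.

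Levels are given as CPM, counts divided by the scaled library total. NPY1R had 699 to 1050 CPM in the NPY1R high libraries and 90.8 to 104 CPM in the NPY1R low libraries, so the labels held in each library. The libraries differed in how expression followed transcript GC content. NPY1R high replicate 3 and NPY1R low replicate 4 were at the low end of this trend. Values without these 2 libraries are given for the 6 of the 8 genes that were tested and for the pathway calls that changed. Library totals lay between 18025648 and 30609791 expected counts. The 11 luminal epithelial markers summed to 9760 to 11100 CPM in NPY1R high and 8280 to 10400 CPM in NPY1R low. Of these 11, 7 had groups without overlap, against 20.2% of all tested genes. PGR, the progesterone receptor, lay at 1920 to 2500 CPM in NPY1R high and 569 to 759 CPM in NPY1R low, and ESR1 and GATA3 were also higher. EPCAM, CDH1, FOXA1 and GRB7 were lower. The part of these markers in the differences given below was not tested. Of the markers of other cell types, KRT14, COL1A2, DCN, PDGFRB, CD3E and MS4A1 were at 0 in all 8 libraries, which allows up to 3 counts in each. COL1A1 stood at 10.4 to 17.5 CPM and VWF at 9.0 to 17.8 CPM. The fibroblast list of 8 genes summed to 10.9 to 17.5 CPM in NPY1R high and 10.4 to 17.6 CPM in NPY1R low, and the endothelial list of 4 genes to 9.22 to 15.6 CPM and 13.5 to 18.2 CPM. The basal list of 6 genes, mostly TP63, summed to 5.15 to 9.20 CPM and 4.83 to 7.96 CPM, and the immune list of 6 genes to 0.936 to 1.23 CPM and 1.14 to 2.07 CPM.

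DKK2 and DKK1 are related genes, and the coding stretch in which they are most alike shows how far their reads can be told apart. The stretch lies in the second cysteine-rich domain, the part of DKK proteins that contacts LRP6. It is 75 bases long within 1 exon of each gene, at chr4:106924020-106924094 on the minus strand for DKK2 and chr10:52316664-52316738 on the plus strand for DKK1 (GRCh38, GENCODE 29 transcripts). Capitals mark the bases that differ.
DKK2: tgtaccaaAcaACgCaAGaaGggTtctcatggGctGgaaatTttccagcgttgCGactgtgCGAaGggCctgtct
DKK1: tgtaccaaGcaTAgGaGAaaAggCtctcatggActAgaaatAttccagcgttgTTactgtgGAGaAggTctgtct
They share 57 of 75 bases (76.0%), with no identical run longer than 11 bases. Of 3589 words of 50 bases in the longest DKK2 coding transcript, 0 occur in a GENCODE 29 transcript of any other gene on either strand. In DKK1 9.36% of such words occur elsewhere, all in the antisense gene PRKG1-AS1, which had at most 7.87 counts in a library.

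DKK2, at chr4:106921802-107283806 on the minus strand, had 15.5, 15.8, 21.7 and 20.5 CPM in NPY1R high replicates 1 to 4. In NPY1R low replicates 1 to 4 it had 0.94, 0.63, 0.869 and 0.354 CPM, from 28, 18, 19 and 9 counts. Every NPY1R high library lay far above every NPY1R low library. The means were 18.4 ± 3.18 CPM and 0.698 ± 0.265 CPM (SD, n = 4 each), and the log2 fold change was 4.7 (SE 0.25), a 26.1-fold higher level in NPY1R high. It was the 3rd largest rise among 14008 tested genes. Within each group the values also differed by replicate, with replicates 3 and 4 above replicates 1 and 2 in NPY1R high. The difference of mean log2(CPM + 0.5) was 3.66 between replicates 1 and 2 of the groups and 4.32 between replicates 3 and 4. Both are below the fitted 4.7 because the added 0.5 is about as large as the NPY1R low values and shrinks the difference. In bulk RNA such as this, more cells with DKK2 mRNA and more DKK2 mRNA per cell cannot be told apart.

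DKK1, at chr10:52314296-52318042 on the plus strand, was present in both groups. It had 28.4, 31.1, 32.3 and 29.4 CPM in NPY1R high replicates 1 to 4, and 34.1, 35.7, 27.3 and 27.1 CPM in NPY1R low replicates 1 to 4. The NPY1R high values lay inside the range of the NPY1R low values, whose replicates 1 and 2 were higher than replicates 3 and 4. Means were 30.3 ± 1.72 and 31 ± 4.48 CPM (SD, n = 4 each), with a log2 fold change of -0.03 (SE 0.10). On the log2(CPM + 0.5) scale the difference was -0.23 between replicates 1 and 2 and 0.18 between replicates 3 and 4, so its direction turned between these subsets, for which the labels name no batch.

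The DKK1 promoter is shown because DKK1 is a known target of the pathway it inhibits. These are the 250 bases before the RefSeq start, at chr10:52314031-52314280 on the plus strand of GRCh38.p14, with each CTTTG, the core of the motif bound by TCF/LEF factors, in capitals on either strand (CAAAG on the reverse).
DKK1 promoter: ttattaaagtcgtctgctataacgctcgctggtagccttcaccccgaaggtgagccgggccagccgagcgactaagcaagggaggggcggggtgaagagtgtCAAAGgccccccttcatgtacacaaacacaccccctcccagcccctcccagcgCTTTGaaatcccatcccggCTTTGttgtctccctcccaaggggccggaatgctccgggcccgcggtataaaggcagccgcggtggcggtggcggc
The window holds 3 such cores. Of 35116 RefSeq promoter windows of this length, 42.1% hold at least 1 and 2.83% hold 3 or more, a cut equal to the count of DKK1 itself. A match of letters is not a measured binding site. Promoter sequence was matched for 2 of the 8 genes, DKK1 and LRP5, and the LRP5 window holds 0 such cores.

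The other members of the family were close to absent. DKK3 had 3, 7, 2 and 4 counts in NPY1R high replicates 1 to 4 and 1, 0, 2 and 2 in NPY1R low, too few to test. DKK4 had 1 count in NPY1R high replicate 1 and 0 in the other 7 libraries. Its 0 over the NPY1R low libraries allows up to 0.0284 CPM (3 counts over the group, for counting error only).

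**Figure D1:**
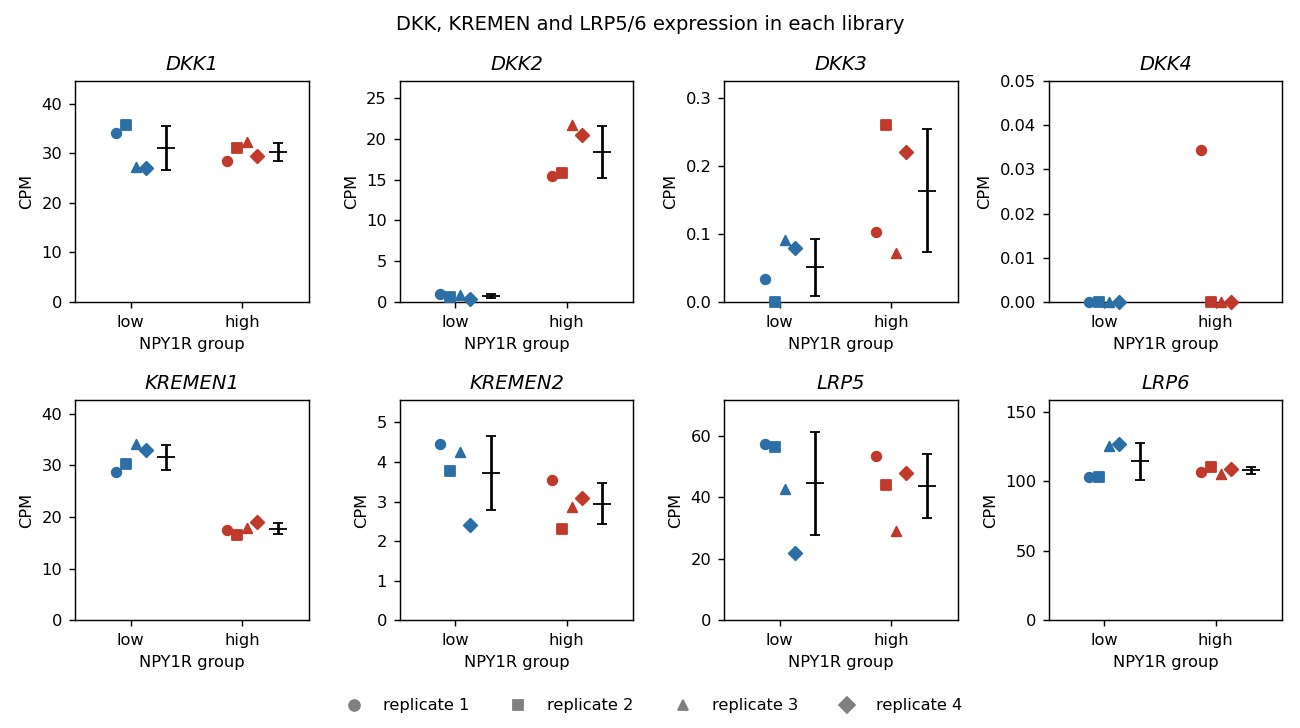
Each panel plots the CPM of 1 gene (linear axis from 0, with its own scale) in the 4 NPY1R low and 4 NPY1R high libraries, with replicates by symbol. Bars give mean ± SD, omitted for DKK4. DKK2 and KREMEN1 are the tested genes whose groups do not overlap, and LRP5 is spread widely in both groups.

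KREMEN1, at chr22:29073078-29168333 on the plus strand, was lower in NPY1R high. It had 17.4, 16.6, 17.8 and 19.1 CPM in NPY1R high replicates 1 to 4 and 28.8, 30.3, 34.2 and 32.9 CPM in NPY1R low replicates 1 to 4. The highest NPY1R high library was well below the lowest NPY1R low library, and the spread inside each group was small. The means were 17.7 ± 1.04 and 31.6 ± 2.46 CPM (SD, n = 4 each), a log2 fold change of -0.83 (SE 0.08), or 0.561 of the NPY1R low level. The difference was -0.78 in replicates 1 and 2 and -0.85 in replicates 3 and 4 on the log2(CPM + 0.5) scale.

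KREMEN2, at chr16:2963944-2968383 on the plus strand, had between 56 and 133 counts in a library. It had 3.54, 2.31, 2.86 and 3.08 CPM in NPY1R high replicates 1 to 4 and 4.46, 3.78, 4.26 and 2.40 CPM in NPY1R low replicates 1 to 4. The groups overlapped through NPY1R low replicate 4. The log2 fold change was -0.34 (SE 0.22). The 3′ end of KREMEN2 lies over PKMYT1 on the opposite strand, with 13.8% of KREMEN2 exon bases inside PKMYT1 exons. The library kit was stranded, but whether counting used the strand is not given in the sources used here, so part of the KREMEN2 count is uncertain. The level of PKMYT1, a kinase that holds CDK1 inactive, was 11.0 ± 4.33 CPM in NPY1R high against 14.8 ± 7.24 in NPY1R low. In KREMEN1, 2.82% of the 50-base words occur in transcripts of 416 other genes, and the rest are its own.

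LRP6, at chr12:12116025-12267012 on the minus strand, was the steadier of the co-receptors. It had 107, 110, 105 and 109 CPM in NPY1R high replicates 1 to 4 and 103, 103, 125 and 127 CPM in NPY1R low replicates 1 to 4. The NPY1R high values fell between the low pair and the high pair of the NPY1R low group. The log2 fold change was -0.09 (SE 0.08). On the log2(CPM + 0.5) scale the difference was 0.07 in replicates 1 and 2 and -0.24 in replicates 3 and 4. In NPY1R low, replicates 3 and 4 were thus above replicates 1 and 2 for LRP6 and below them for DKK1.

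LRP5, at chr11:68312609-68449275 on the plus strand, varied more inside the groups than between them. It had 53.4, 44.0, 29.2 and 48.0 CPM in NPY1R high replicates 1 to 4 and 57.5, 56.5, 42.6 and 21.8 CPM in NPY1R low replicates 1 to 4. NPY1R high replicate 3 and NPY1R low replicate 4 were the lowest of their groups. Its log2 fold change was -0.03 (SE 0.28), and its coefficient of variation was 23.8% in NPY1R high and 37.3% in NPY1R low, against 2.05% and 11.7% for LRP6.

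The same 2 libraries were at the low end in how expression followed the GC content of transcripts. At the high end were NPY1R high replicate 1 and NPY1R low replicates 1 and 2. Over 13608 genes, the rank correlation (Spearman's rho) of transcript GC content with the deviation from the mean of the 8 libraries was -0.423 in NPY1R high replicate 3 and -0.555 in NPY1R low replicate 4, and from -0.032 to 0.453 in the other 6 (genes are not independent replicates). LRP5 transcripts have 62.0% GC, above 89.9% of these genes, and KREMEN2 transcripts 68.7%, above 99.5%. LRP6 transcripts have 48.1%, above 43.5%. When the smooth GC trend of each library was removed, the SD of log2 CPM of LRP5 went from 0.38 to 0.22 in NPY1R high and from 0.65 to 0.32 in NPY1R low. The SD of KREMEN2, the gene of highest GC content among the 6 tested, stayed at 0.25 in NPY1R high and went from 0.40 to 0.27 in NPY1R low. In NPY1R high and NPY1R low, the SD of LRP6 went from 0.03 to 0.04 and from 0.17 to 0.14. That of KREMEN1 went from 0.08 to 0.10 and from 0.11 to 0.19. That of DKK1 went from 0.08 to 0.05 and from 0.21 to 0.26, and that of DKK2 from 0.25 to 0.23 and from 0.56 to 0.60. With the trend removed, LRP5 differed between the groups by 0.03 (SE 0.14) and KREMEN2 by -0.31 (SE 0.18) on the log2 scale, and the groups of both still overlapped. DKK2 differed by 4.66 (SE 0.22) and KREMEN1 by -0.81 (SE 0.10), again with no overlap.

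**Figure D2:**
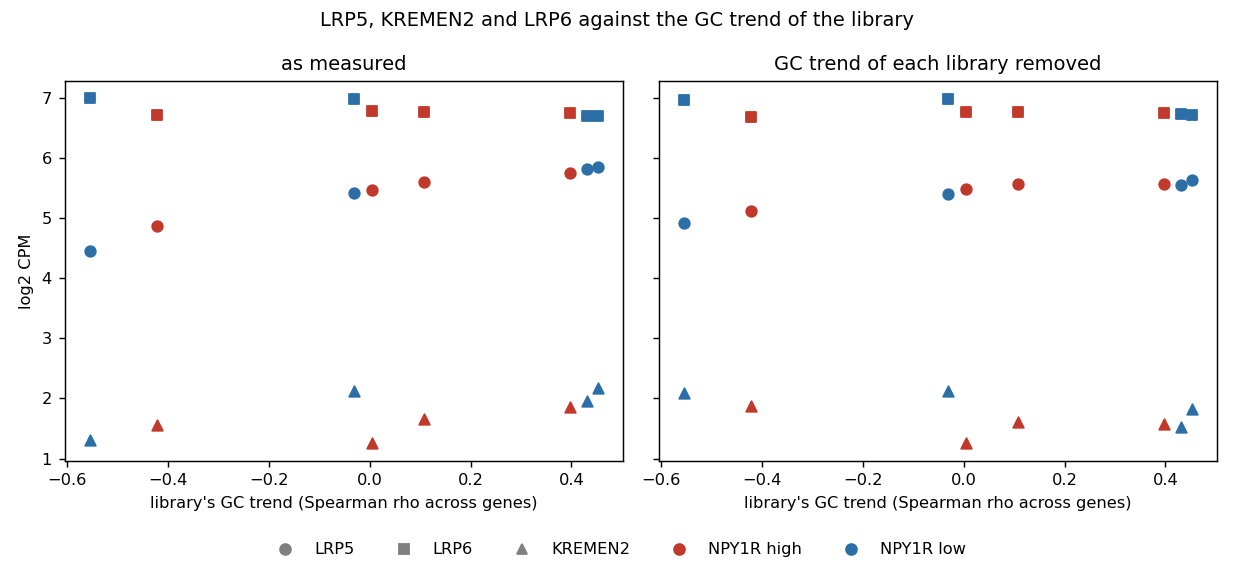
Log2 CPM of LRP5, KREMEN2 and LRP6 in each library (vertical axis) against the library's GC trend, the rank correlation (Spearman) across genes of deviation with transcript GC content (horizontal axis), as measured at left and with the trend removed at right. As measured, LRP5 is lowest in the 2 libraries with rho of -0.423 and -0.555, and these points lie closer to the others at right.

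LRP5 and LRP6 are also close relatives, so the coding stretch where they are most alike is shown for the same reason as for DKK1 and DKK2. It lies at chr11:68413751-68413825 on the plus strand for LRP5 and chr12:12159019-12159093 on the minus strand for LRP6 (GRCh38), with differing bases in capitals.
LRP5: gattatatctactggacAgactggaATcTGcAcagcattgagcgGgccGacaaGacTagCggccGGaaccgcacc
LRP6: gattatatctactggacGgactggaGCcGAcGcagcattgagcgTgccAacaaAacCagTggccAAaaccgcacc
They share 62 of 75 bases (82.7%), with the longest identical run at 17 bases. Of the 50-base words of LRP5, 0.12% occur in another gene, all in its partial copy LRP5L, which had 2.64 to 4.85 CPM. For LRP6 the share was 0.10%.

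Of these 8 genes, 6 passed the filter on low counts, DKK3 and DKK4 being left out. At an adjusted p under 0.05 by edgeR's quasi-likelihood test over all genes, 2 of the 6 passed, DKK2 higher and KREMEN1 lower, against 13.6% of all tested genes (5.78% higher and 7.81% lower). The same 2 had groups without overlap, against 20.2% of all tested genes. The split of all calls into higher and lower moved with the scaling, as given at the end. Because the genes were chosen with this comparison known, nothing is read from these counts. The median log2 change of the 6 was -0.06, and that of all tested genes -0.029. Without NPY1R high replicate 3 and NPY1R low replicate 4, the log2 changes were 4.43 (SE 0.20) for DKK2 and -0.78 (SE 0.10) for KREMEN1, and 2 of the 6 again passed. The others then stood at -0.09 (DKK1), -0.45 (KREMEN2), -0.07 (LRP5) and 0.01 (LRP6).

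Levels of different genes were compared as CPM per kb of coding transcript. With the median length of a gene's coding transcripts, LRP6 was the most abundant in NPY1R high at 40.1 ± 0.824 CPM per kb (SD, n = 4). DKK2 (19.9 ± 3.43), DKK1 (16.9 ± 0.963) and LRP5 (15.2 ± 3.62 CPM per kb) followed, and each neighbouring pair of these lay within their spread. KREMEN1 (6.52 ± 0.381) and KREMEN2 (1.55 ± 0.269 CPM per kb) came next. In NPY1R low the order was LRP6 (42.7 ± 5.02), DKK1 (17.3 ± 2.5), LRP5 (15.5 ± 5.79), KREMEN1 (11.6 ± 0.904), KREMEN2 (1.96 ± 0.489) and DKK2 (0.755 ± 0.287 CPM per kb), where LRP5 lay within its spread of both DKK1 and KREMEN1, while DKK1 lay above KREMEN1 by more than the spread of either. DKK3 and DKK4 were last in both groups.

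This order depended on the length used, since several annotated coding transcripts of DKK2 and LRP6 are much shorter than the longest. For DKK2 the median is 925 and the longest 3638 nucleotides, and for LRP6 they are 2683.5 and 10020. By the longest transcript, DKK1 led in both groups, at 16.9 ± 0.963 CPM per kb in NPY1R high and 17.3 ± 2.5 in NPY1R low (SD, n = 4 each). LRP6 was next at 10.7 ± 0.221 and 11.4 ± 1.34 CPM per kb. DKK2 was then 5.05 ± 0.873 CPM per kb in NPY1R high, below LRP5 at 8.46 ± 2.01, and 0.192 ± 0.0729 in NPY1R low.

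The share of DKK2 in the family's signal per kb was 53.5% ± 3.88 in NPY1R high and 4.15% ± 1.54 in NPY1R low by median length (SD, n = 4 each). By the longest transcript it was 22.8% ± 2.72 and 1.09% ± 0.417. The level of DKK1 to DKK4 together was 36.9 ± 3.96 against 18.1 ± 2.57 CPM per kb by median length, without overlap. By the longest transcript it was 22.1 ± 1.56 against 17.5 ± 2.51 CPM per kb, and the groups came close, with a lowest NPY1R high value of 20.2 and a highest NPY1R low value of 20.1. The co-receptors LRP5 and LRP6 together gave 55.3 ± 4.12 against 58.3 ± 2.67 CPM per kb by median length. KREMEN1 and KREMEN2 together gave 8.07 ± 0.556 against 13.6 ± 0.857. The higher DKK sum in NPY1R high came from DKK2, whose difference chose these genes, while DKK1 stood at 16.9 against 17.3 CPM per kb. Nothing is therefore read from that sum. The lower KREMEN sum was mostly KREMEN1 (6.52 against 11.6 CPM per kb), with KREMEN2 at 1.55 against 1.96. The co-receptor signal overlapped between the groups (49.3 to 58.4 against 55.0 to 61.6 CPM per kb).

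**Figure D3:**
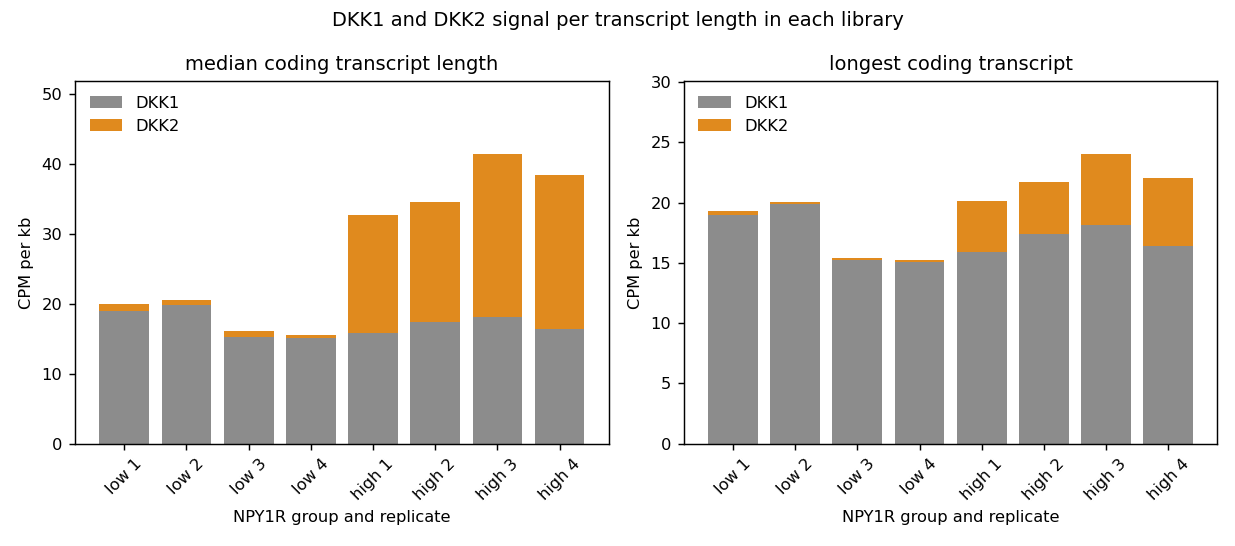
Stacked bars of DKK1 and DKK2 in CPM per kb (axis from 0) in each library, by the median coding transcript length at left and the longest coding transcript at right. DKK2 is a visible part of the bar in the 4 NPY1R high libraries under both lengths, while DKK1 is of similar height in both groups.

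The genes most like DKK2 were found by the root mean square difference between log2 CPM profiles over the 8 libraries, each centred on its mean, among 12627 genes with a mean of at least 1 CPM. This is a description, as the profile of DKK2 was known. The nearest were GFRA1 (difference 0.62), DSCAM (0.65), CBLN2 (0.66), PCDH9 (0.72) and PCDH10 (0.72), where the median over all genes was 2.36. With a log2 change of 4.7 for DKK2, the difference between the groups largely sets this measure. A gene without a group difference lies far from DKK2, so the median is no yardstick of likeness. The genes named had log2 changes from 3.55 to 4. GFRA1, a co-receptor for GDNF, averaged 243 ± 37.9 CPM in NPY1R high against 17.8 ± 3.91 in NPY1R low (SD, n = 4 for this and the next values). The cell adhesion gene DSCAM had 3.38 ± 0.631 and 0.208 ± 0.0354 CPM. The synaptic organiser CBLN2 had 52.8 ± 6.94 and 4.09 ± 1.45 CPM. The protocadherins PCDH9 and PCDH10 had 7.57 ± 0.99 and 9.02 ± 1.05 CPM in NPY1R high, and 0.562 ± 0.214 and 0.751 ± 0.37 CPM in NPY1R low. NPY1R itself was 11th in this order, at 0.84.

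Around these genes, 122 other genes of the Wnt pathway and the LDL receptor family were listed, and 83 had enough counts to test. In edgeR's quasi-likelihood test, 8 rose and 5 fell in NPY1R high at an adjusted p under 0.05 over all genes. That is 15.7% of the list, near the 13.6% of all tested genes, and the median log2 change was -0.03. The whole list is therefore not set apart from other genes by its count. The smaller lists below hold few tested genes each. Nothing is read from their counts, including where 0 passed.

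Most other secreted antagonists were nearly absent. Of 14, only IGFBP4 and APCDD1 were tested, and SFRP1, SFRP2, FRZB, SFRP4, SFRP5, WIF1, SOST, NOTUM and CER1 had at most 4 counts in any library. IGFBP4, an IGF binding protein that can also bind LRP6, rose from 108 ± 4.29 to 160.1 ± 10.2 CPM (SD, n = 4 each), which is 0.57 on the log2 scale (SE 0.06, edgeR quasi-likelihood adjusted p 0.000183). With the GC trend removed, the edgeR adjusted p of IGFBP4 was 0.0346, its highest over the alternatives. It was named after its values were seen, as were CAPRIN2, FZD2, FZD4, FZD8, MYC, TNFRSF19 and TLE3 below.

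R-spondins, which relieve the removal of Frizzled and LRP6 from the surface, had at most 4 counts in a library. Their receptor LGR4 rose from 91.0 ± 7.43 to 119.5 ± 6.17 CPM (SD, n = 4 each), which is 0.39 on the log2 scale (SE 0.07, edgeR adjusted p 0.00373). The related LGR6 was rare, at 0.505 ± 0.157 and 1.43 ± 0.582 CPM, with a log2 change of 1.5 (SE 0.37, edgeR adjusted p 0.0238). LGR6 lost this call without NPY1R high replicate 3 (edgeR adjusted p 0.0676) and when NPY1R high replicate 4, NPY1R low replicate 1 or NPY1R low replicate 2 was left out. Without NPY1R high replicate 3 and NPY1R low replicate 4 together, LGR6 stood at 1.52 on the log2 scale (edgeR adjusted p 0.0509), and ZNRF3, described next, at -0.29 (edgeR adjusted p 0.0366). Of the 13 pathway genes past the threshold, the other 12 kept their call without this pair of libraries. The ubiquitin ligases that clear Frizzled and LRP6 did not pass. ZNRF3 had 20.3 ± 1.33 CPM in NPY1R high and 24.9 ± 1.98 in NPY1R low (edgeR adjusted p 0.0502), and RNF43 78.0 ± 6.56 and 90.8 ± 4.26 CPM (edgeR adjusted p 0.0686). Both calls turned with the model. The edgeR adjusted p of RNF43 was 0.0407 with the GC trend removed and 0.223 without NPY1R high replicate 3, and that of ZNRF3 ranged from 0.0174 to 0.186 over the alternatives.

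CKAP4, reported as another receptor for DKK1 and DKK3, averaged 55.5 ± 2.79 CPM in NPY1R high against 64.2 ± 3.90 in NPY1R low (SD, n = 4). Its log2 change was -0.21 (SE 0.06, edgeR adjusted p 0.0595). That p was lowest with the GC trend removed (0.0145) and highest without NPY1R low replicate 1 (0.224). CKAP4 passed in 4 of 27 alternatives. Among Frizzled and related receptors, 2 rose and 1 fell of 10 tested, or 30%, against 13.6% of all tested genes. FZD4 fell from 52.6 ± 2.85 to 33.0 ± 2.57 CPM, or -0.67 on the log2 scale (SE 0.07, edgeR adjusted p 0.000264). The 2 that rose were less abundant. FZD2 went from 2.09 ± 0.278 to 4.11 ± 1.10 CPM, or 0.96 on the log2 scale (SE 0.205, edgeR adjusted p 0.0117). FZD8 went from 5.20 ± 0.760 to 7.98 ± 0.446 CPM, or 0.62 on the log2 scale (SE 0.13, edgeR adjusted p 0.00933). Of 6 tested Wnt ligands, 0 passed in edgeR, DESeq2 or limma-voom, beside 13.6% of all tested genes in edgeR. Of these 6, 1 had an unadjusted p under 0.05 in edgeR.

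Among 12 genes for the folding and phosphorylation of LRP5 and LRP6, 1 rose (8.33%, against 13.6% of all tested genes). This was CAPRIN2, which promotes LRP6 phosphorylation, at 21.0 ± 3.42 CPM in NPY1R high against 11.4 ± 1.40 in NPY1R low (SD, n = 4). Its log2 change was 0.88 (SE 0.14, edgeR adjusted p 0.00212). Of 15 tested genes of dishevelled and the destruction complex, 0 passed in edgeR, DESeq2 or limma-voom, beside the same 13.6% in edgeR. Of these 15, 0 had an unadjusted p under 0.05 in edgeR. Among them AXIN2, the usual readout of beta-catenin activity, was very low at 0.391 ± 0.117 and 0.465 ± 0.159 CPM, with a log2 change of -0.27 (SE 0.36) that was smaller than its error at this depth.

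Of 15 tested target genes, 1 rose and 1 fell (13.3%, against 13.6% of all tested genes). MYC, which many pathways control, rose from 105.6 ± 9.13 to 155.7 ± 10.7 CPM (SD, n = 4), or 0.56 on the log2 scale (SE 0.07, edgeR adjusted p 0.000797). TNFRSF19 fell from 4.82 ± 0.577 to 2.94 ± 0.366 CPM, or -0.71 on the log2 scale (SE 0.15, edgeR adjusted p 0.00993). Among 12 tested nuclear factors, 1 rose and 1 fell (16.7%, against the same 13.6%), both corepressors of the TLE family. The abundant TLE3 fell from 95.5 ± 12.4 to 65.5 ± 9.34 CPM (SD, n = 4 each), or -0.55 on the log2 scale (SE 0.12, edgeR adjusted p 0.0137). The rare TLE4 rose from 0.498 ± 0.123 to 1.3 ± 0.204 CPM, or 1.4 on the log2 scale (SE 0.24, edgeR adjusted p 0.00341). Of 11 other LDL receptor family genes, 2 fell (18.2%, against the same 13.6%). LRP2, the endocytic receptor megalin, lay between 29.3 and 55.6 CPM over the NPY1R high libraries, all below the 86.8 to 107 CPM of the NPY1R low libraries. Its log2 change was -1.3 (SE 0.18, edgeR adjusted p 0.00118).

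**Figure D4:**
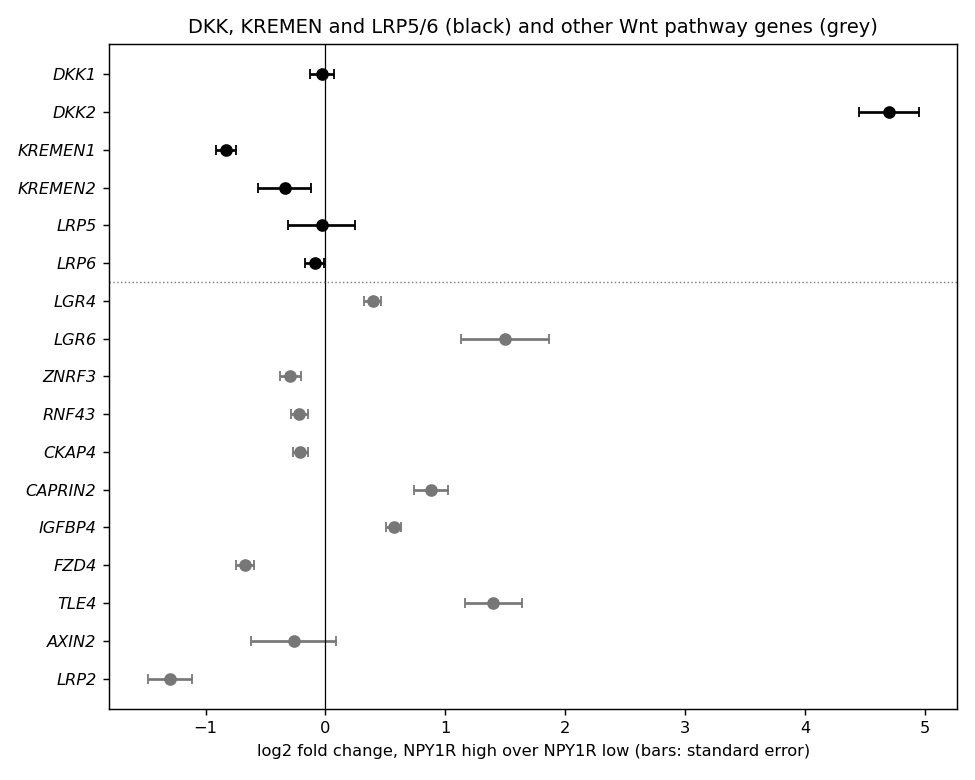
Log2 fold change of NPY1R high over NPY1R low (horizontal axis, points) with its standard error (bars) for the 6 tested DKK, KREMEN and LRP genes in black and 11 other pathway genes in grey. DKK2 lies at 4.7, far to the right of every other gene drawn, and KREMEN1 at -0.83. FZD4 is drawn, while FZD2 and FZD8, which rose, are not.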

How the data were processed

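The authors deposited expected counts per gene symbol, unscaled between libraries, which per the labels' protocols came from a stranded kit. Per the submitters' processing notes, STAR 2.5.2, RSEM 1.3.0 and the build hg38 were used. Their roles, settings and annotation are not given in the sources used here. The design had foreseen counts, so the expected counts were rounded before tests. Of the values of the 8 genes, 0 needed rounding.

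Genes were kept by edgeR's filterByExpr (minimum count 10), leaving 14008 of 26475, and scaled by TMM. CPM use these scaled totals. The groups were compared by edgeR's quasi-likelihood test, with Benjamini-Hochberg adjustment over all tested genes at 0.05 (R 4.3.3, edgeR 4.0.16, limma 3.58.1, DESeq2 1.42.0), checked on simulated counts. Log2 CPM used a prior count of 2. Transcript lengths, GC and positions came from GENCODE 29, also GRCh38. The 12 library pairs within groups differed by chi-squares of 6.0 or more per degree of freedom, so none was a duplicate.

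The genes and the pathway lists were chosen with earlier results of these data known. Named are the 8 genes, NPY1R, list genes past the threshold with an absolute log2 change of at least 1 (up to 10 each way), LGR4, ZNRF3, RNF43, AXIN2 and CKAP4, and the 5 genes nearest to DKK2. IGFBP4, CAPRIN2, FZD2, FZD4, FZD8, MYC, TNFRSF19 and TLE3 were added after their values were seen. MESD was matched by its older symbol. Alternatives were other scalings, filters, tests, a replicate block, a GC offset and leaving out libraries.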

Additional observations from a re-analysis of the deposited data

How the results depend on the processing

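Over the alternatives the log2 change of DKK2 ranged from 4.43 to 4.93 and that of KREMEN1 from -0.85 to -0.78. The count of the 8 genes past the threshold was 2, and 1 where requiring 10 counts in every library left out DKK2. This contrast chose the genes, so nothing is read from that count. DKK1 and LRP5, at -0.03 each, changed sign in 10 and 15 alternatives. DKK1 then stood at 0.01 with library totals, without a filter, at 10 counts and with other TMM references (0 to 0.01), at 0.02 with upper-quartile factors, and between -0.09 and 0.05 when a library was left out. LRP5 stood at 0.01 with library totals, at 10 counts, in limma-voom, and with the term for replicates 1 and 2 against 3 and 4, at 0 without a filter and with other TMM references, at 0.02 with upper-quartile factors, at 0.03 with the GC offset, and between -0.23 and 0.15 when a library was left out. LRP6 turned to 0.01 when both libraries of lowest GC trend were left out, an alternative chosen after seeing the data. The causes were not tested.

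Same-numbered libraries shared deviations from their group means at correlations of 0.339, 0.157, 0.0907 and 0.0178 across genes. Differently numbered libraries were not compared in this way, so these values cannot tell whether the numbers pair the libraries. With the replicate block LRP5 was 0.01, 1833 genes passed in place of 1904, and no call of the 8 genes changed. With the GC offset and replicate block LRP5 was 0.04, 3347 genes passed, and 21 of the pathway list in place of 13. With the GC offset alone these were 2931 and 22, and with the term for replicates 1 and 2 against 3 and 4, 2886 genes passed. An adjusted p under 0.01 left 1032. Leaving out a library gave 1351 to 2132 genes and 11 to 15 of the list. Higher genes made up 42.5% of calls in the main fit, where TMM used edgeR's default reference library. With the 7 other TMM references they made up 49.5% to 53.1%, and with upper-quartile factors 56.3%. Whether more genes rose or fell thus depended on the scaling. The ratio of LRP6 to LRP5 per kb in NPY1R high moved from 2.77 to 1.33 by the longest transcript. Within the 12 groups of 4 values tested for a library far from the rest, 0 were found. DKK3, DKK4 and AXIN2 are limited by depth.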
